A study of Mus musculus with 8 samples.

Results

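CGE progenitor-like nuclei were the nuclei of the caudal ganglionic eminence (CGE) whose open chromatin leaned most strongly towards neural progenitor genes and away from genes of GABAergic neurons. In each CGE library the nuclei with at least 5000 counts in peaks were ranked by the share of progenitor counts, (A + 1)/(A + B + 2). A was the count in peaks overlapping the body or the 2 kb upstream of Hes1, Hes5, Sox2, Notch1, Nes and Vim, and B was the same count for Dlx5, Dlx6, Gad1, Gad2 and Slc32a1. The 30% of nuclei with the highest share were the members. There were 2440 members among the 8543 nuclei of the CGE libraries and the 39253 nuclei of the series, 1112 of 3707 ranked nuclei in CGE replicate 1 and 1328 of 4428 in CGE replicate 2. Taking the highest 30% in the same way gave 2820 nuclei of the medial eminence (MGE) and 3147 of the lateral eminence (LGE), which served for comparison. The share at which the cut fell differed between libraries.

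The ganglionic eminences (GE) are the ventral swellings of the embryonic telencephalon in which most GABAergic neurons of the forebrain are born. Their ventricular zone (VZ) is lined by radial glia, dividing progenitors that carry Sox2, nestin (Nes) and vimentin (Vim). In these cells Notch1, once bound by a Delta or Jagged ligand on a neighbouring cell, frees an intracellular domain that works with Rbpj to switch on Hes and Hey repressors, and these hold back neurogenic factors. Progenitors that leave this state open the Dlx genes and later the genes for GABA synthesis (Gad1, Gad2) and vesicle loading (Slc32a1). The CGE, the caudal part of the eminences, is known for its high levels of the nuclear receptors Nr2f1 and Nr2f2 (COUP-TFI and COUP-TFII), whereas the MGE is patterned by Nkx2-1 and Shh.

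The libraries were single-nucleus ATAC-seq of wild-type mouse embryonic brain, with 2 replicates each of CGE, MGE and LGE at embryonic day E12.5. The cortical libraries, of E12.5 and E14.5, were not used here. No strain, sex or number of pooled embryos is given in the labels, so p-values measure only the spread between these samples, which may be technical. Counts in peaks per library ran from 77387940 in MGE replicate 2 to 138789944 in MGE replicate 1, with 87330827 and 87733388 in the CGE replicates. A fragment with both ends in a peak adds 2 to its count, and odd counts made up 9.54% to 10.4% of the matrix entries above 0 in the replicate 1 libraries and 5.17% to 5.85% in the replicate 2 libraries of the 3 eminences, and each of these sets held 1 library per eminence. Of the barcodes, 495 occurred in more than 1 of the 6 libraries, 21 in both CGE libraries and 1 among the members of both. MGE replicate 1 had 12 progenitor peaks covering 126209 bp, against 18 to 23 peaks over 65018 to 108681 bp in the other 5 libraries, so its ranking rested on broader peaks.

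The cut fell at a share of 0.816 in CGE replicate 1 and 0.824 in CGE replicate 2. The last nucleus inside had A = 30 and B = 6 in replicate 1, as had the one just outside, since 14 nuclei tied there and 10 of them were kept. In replicate 2 the last inside had A = 41 and B = 8 and the next outside A = 13 and B = 2, among 5 tied nuclei of which 4 were kept. The median member carried 30 progenitor counts in replicate 1 and 36 in replicate 2, against 12 and 10 in the other ranked CGE nuclei, and 2 GABAergic counts against 12 in both replicates. No GABAergic count was seen in 34.4% and 30.4% of members and in 2.16% and 3.77% of the others. Median depth was 18416.5 and 18470 counts in members and 16298 and 15433 in the others. After each nucleus was thinned to 5000 counts, 79.9% and 82.0% of the members were again in the highest 30%. In replicates 1 and 2 the cut fell at 0.833 and 0.733 in MGE and at 0.841 and 0.861 in LGE. No GABAergic count was seen in 23.5% and 17.3% of MGE members and in 42.3% and 35.2% of LGE members. Median depth was 17742 and 23348 counts in MGE members and 16328.5 and 15259 in LGE members. The part of these inequalities in the comparisons was not tested.

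The genes outside the rule that tell radial glia from neurons moved with the rule genes. The members were chosen on these nuclei, so the ratios of members to other CGE nuclei are a description without a test. Each gene was taken as the sum over its merged regions, in CPM (its count per 1000000 counts in genes), and 2 CPM were added to each side before the log2 ratio. All 16 radial glia genes were higher in members than in the other nuclei in both replicates, with medians of 0.45 and 0.71, whereas the median over all 16306 genes was -0.04 and -0.06, with 5214 of them higher and 8079 lower in both replicates. Fabp7, a fatty acid binding protein of radial glia, stood at 100.4 and 96.1 CPM in members against 55.4 and 37.3 in the other nuclei of the 2 replicates. Slc1a3, the glial glutamate transporter GLAST, stood at 153 and 129 against 88.0 and 51.6. The smallest ratios of the list were those of Id4, an inhibitor of bHLH factors, at 0.05 and 0.14. In the other eminences the medians of the list were alike, 0.37 and 0.56 in MGE and 0.45 and 0.49 in LGE.

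The neuronal genes lay on the other side. All 10 were lower in members in both replicates, with medians of -0.32 and -0.46. Stmn2, a tubulin-binding protein of growing neurites, had the lowest ratios, -1.03 and -1.19, and Dcx, the doublecortin of migrating neurons, had -0.95 and -0.83. The neurogenic list held 4 of 10 genes higher and 5 lower in both replicates, beside the 5214 and 8079 of all 16306 genes. Among them Ccnd2, a cyclin of dividing progenitors, had ratios of 0.60 and 0.89, while Sp9, a factor of newborn GABAergic neurons, had -0.78 and -0.82. Dlx1 and Dlx2, which shared their region, had -0.39 and -0.42. The neuronal medians were -0.48 and -0.39 in MGE and -0.31 and -0.48 in LGE, so they too were not particular to CGE.

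**Figure D1:**
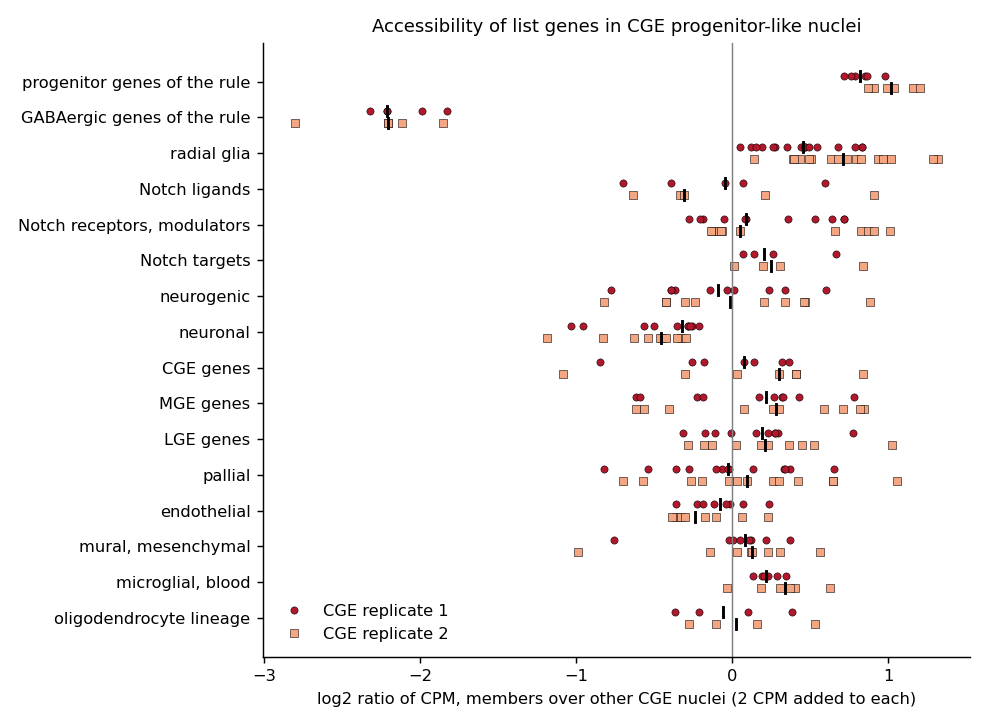
Log2 ratio of CPM in members over the other ranked CGE nuclei, 2 CPM added to each, for the genes of 16 lists (rows). Each point is a gene in CGE replicate 1 (circles) or CGE replicate 2 (squares) and the black bars are list medians. The 16 radial glia genes lie to the right of 0 and the 10 neuronal genes to the left in both replicates; the top rows are the rule's own genes.

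Within the Notch pathway, the genes listed as further targets were higher in members or close to equal. The ligands and the receptors and modulators held genes in both directions. Of all 16306 genes, 5214 were higher and 8079 lower in both replicates. All 4 genes listed as targets were higher in both replicates, led by Heyl at 0.66 and 0.84. Hes6, which counteracts Hes1, was close to equal at 0.07 and 0.01. Among the members, Heyl was a leading gene of the mural-like cluster 6 described below, at 144 CPM against 16.3. Among receptors and modulators, 6 of 11 were higher and 4 lower. Notch2 reached 317 and 254 CPM in members against 193 and 142 in the other nuclei. Lfng, a glycosyltransferase that tunes the response of Notch to its ligands and shares a region with Ttyh3, reached 233 and 248 against 141 and 122, and Nrarp, a feedback inhibitor of the pathway, 227 and 263 against 145 and 139. Numbl, an endocytic inhibitor of Notch, was lower at -0.28 and -0.13. Of the 5 ligands 2 were higher and 3 lower. Dll3 and Jag2 were lower, with ratios of -0.39 and -0.33 for Dll3 and -0.70 and -0.64 for Jag2. Dll4 was lower at -0.05 and -0.31. Jag1 was higher, at 256 and 258 CPM against 169 and 137, and Dll1 had 0.07 and 0.21.

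The lists of genes that pattern the forebrain held genes in both directions. Of the CGE genes 4 of 7 were higher in both replicates and 2 lower, of the MGE genes 6 of 10 and 3, of the LGE genes 6 of 10 and 3 and of the pallial genes 5 of 13 and 5, beside the counts over all genes given above. Nr2f1 was higher in members with ratios of 0.14 and 0.41 and Nr2f2 with 0.32 and 0.41. Npas1, a bHLH-PAS factor of interneurons, was lower at -0.84 and -1.09. Gsx2, a homeobox factor of VZ progenitors, stood at 152 and 160 CPM in members against 87.8 and 77.9, and Gli3, the transcriptional repressor of Hedgehog signalling, at 697 and 649 against 442 and 312. Outside the lists and the rule's regions, the genes with the largest ratios in both replicates were Gm17387, the macrophage gene Mpeg1, Fam83a, Fam24a and Tectb, from 1.22 to 1.61, each measured in 1 region; that of Fam24a was shared with Fgfr2, a growth factor receptor. The lowest were Lrrc52, Gpr22, Scn3a, Ina and Gast, from -2.03 to -1.43. Scn3a, a neuronal sodium channel, stood at 17.2 and 16.5 CPM in members against 53.5 and 53.2, and Ina, a neuronal intermediate filament, at 17.8 and 24.5 against 54.3 and 86.0, in a region shared with Nt5c2.

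Of the 6 measured microglial and blood genes, 5 were higher in members in both replicates and none was lower in both, with medians of 0.21 and 0.34. Of the 8 endothelial genes 2 were higher and 6 lower, beside the counts over all genes given above. The part of such cells in the other ratios was not tested. The 8 endothelial genes summed to 245 and 189 CPM in members and 267 and 217 in the other nuclei, and the 8 mural and mesenchymal genes to 327 and 312 against 312 and 285. The 6 measured microglial and blood genes summed to 286 and 277 against 247 and 240, and Aif1 and Gata1 had no region shared by the 6 libraries over their body or the 2 kb upstream. Measured in the same way, the members of MGE and LGE ranged from 181 to 249 for the endothelial, 300 to 408 for the mural and 257 to 295 for the microglial list.

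The members were not uniform. Clustering the members on their own regions (latent semantic indexing and Leiden clustering) gave 6 clusters. A list gene was counted as raised in a cluster at 10 CPM or more and a log2 ratio of 0.5 or more over the other members, with 5 CPM added to each. Clusters are described by their genes and were not tested, since the same counts formed them. Clusters 1, 2 and 3, of 844, 788 and 365 nuclei, stayed unnamed: in clusters 1 and 2 fewer than 3 genes of any list were raised, and in cluster 3 the list with most, the pallial one, had 3 of 13. Cluster 1 held 62.0% of the members of CGE replicate 1 and 11.7% of those of replicate 2, and cluster 2 held 4.86% and 55.3%. Each of these 2 clusters thus came mostly from 1 library, so a difference in kind and a difference between libraries cannot be told apart. Cluster 2 had raised Sox1, Zfp36l1, Notch3 and Nkx2-2, and its leading genes included Vax1, a homeobox factor of the ventral forebrain, at 211 CPM against 110.5.

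Cluster 3 was drawn evenly from both libraries, with 15.9% and 14.2% of their members. Its leading genes included Dmrt1 and Fgf15, at 178 and 106 CPM against 67.7 and 41.7 in the other members. Pax6, the homeobox factor that marks dorsal and lateral radial glia, was raised to 557 CPM against 340, as were Dmrta2 (282 against 117), Emx1 (59.9 against 37.9) and Neurog2 (132 against 74.7), which are known from the pallial VZ. Nr2f2, Syt1, a synaptic vesicle protein, and the macrophage receptor gene Csf1r were also raised there, Nr2f2 to 716 against 500.4 CPM. Csf1r was raised in cluster 4 as well. The later pallial genes Tbr1, Neurod2, Neurod6 and Slc17a6 were below the other members in this cluster.

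Clusters 4, 5 and 6 went against the label. Cluster 4, with 8.004% and 9.86% of members, was pallial-like: 11 of 13 pallial genes were raised, with Slc17a6, the vesicular glutamate transporter VGLUT2, at 253 CPM against 45.2 and Eomes, a factor of intermediate progenitors, at 193 against 55.6. In addition 5 of 10 neuronal genes were raised, among them Dcx at 98.9 against 41.7. Cluster 5, with 8.09% and 8.58%, stayed unnamed, since 3 of 10 neuronal and 4 of 13 pallial genes were raised. It had Stmn2 at 84.4 against 24.9, Ank3 at 421 against 250 and Dcx at 75.5 against 43.8, and among pallial genes Slc17a6 at 170 against 52.9, Neurod6 at 22.03 against 5.98, Neurod2 at 16.0 against 9.42 and Tbr1 at 140.5 against 96.8. Its median nucleus had 9 and 8 progenitor counts and no GABAergic count in the 2 replicates, so it entered the highest 30% on few counts of either kind. Cluster 6, of 13 and 6 nuclei, was mural-like, with 7 of 8 mural genes raised, Pdgfrb at 328 against 59.6 CPM and Rgs5 at 37.1 against 3.82, while 3 of 8 endothelial genes, Cldn5, Kdr and Flt1, were raised as well. At a resolution of 1.0, a cluster of 29 and 13 nuclei had 7 of 8 endothelial, 3 of 8 mural and 3 of 6 measured microglial and blood genes raised. Sox2, a gene of the rule, was lower in clusters 4, 5 and 6, at 424, 380 and 152 CPM against 628, 631 and 616 in the other members. Members whose rate of progenitor counts reached the median of their library numbered 960 and 1173, which kept 96.2% and 98.4% of the main libraries' nuclei in clusters 1 and 2, 33.3% and 34.2% of cluster 5, 53.9% and 58.0% of cluster 4 and 69.2% and 83.3% of cluster 6. This set, chosen after the data had been seen, served as an alternative in the tests.

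**Figure D2:**
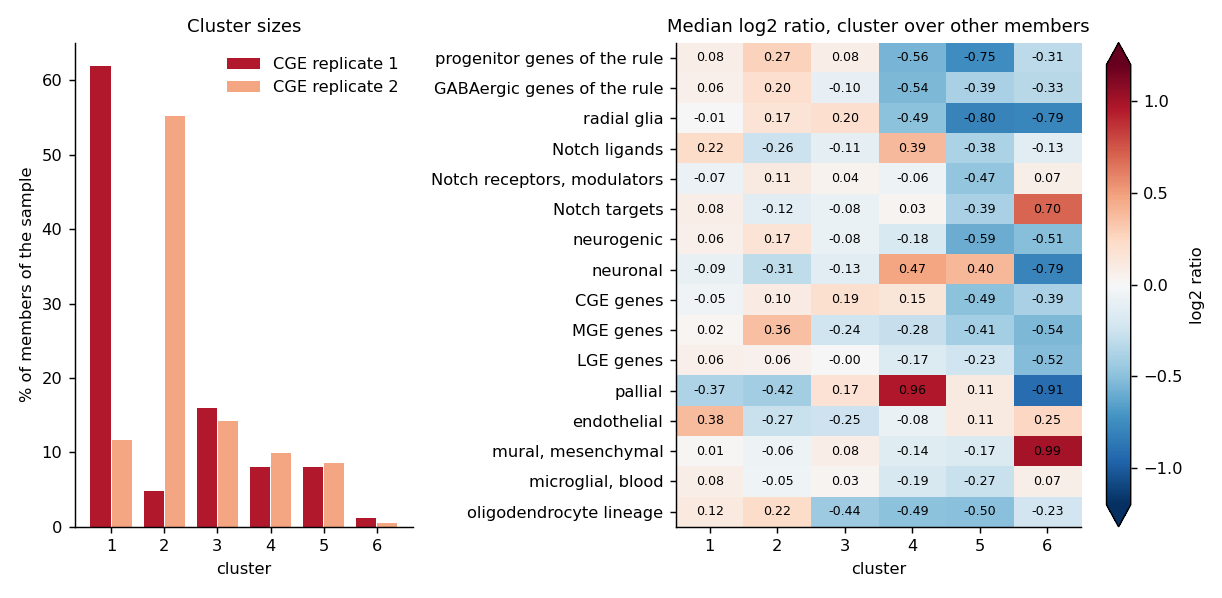
Sub-clusters of the members. Left, share of the members of each CGE library (y axis, %) in clusters 1 to 6; right, median log2 ratio of each gene list in a cluster over the other members. Clusters 1 and 2 divide by library, the pallial list has its highest median (0.96) in cluster 4 and the mural list (0.99) in cluster 6.

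The comparison of CGE with MGE members asks which chromatin differed between these 2 sets of nuclei. The CGE set was mixed, as its clusters showed, and the MGE and LGE members were not clustered. The part of such nuclei in the differences was not tested. At the level of genes, 3 MGE patterning genes were less open in CGE members and Pax6 was more open. Sums over the member nuclei of each library were compared with edgeR's quasi-likelihood test over the 6 libraries of CGE, MGE and LGE, and features were called at a p of 0.05 or less after Benjamini-Hochberg adjustment. Of 16305 genes 101 were called (0.619%), 62 higher and 39 lower in CGE, and 1898 had an unadjusted p under 0.05. Leaving out MGE replicate 1 left 6 calls and leaving out MGE replicate 2 left 11, whereas leaving out an LGE library raised the count to 276 or more. Scaling by the length called as peak in each library gave 11 calls, 2 higher and 9 lower.

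Of the 10 MGE genes 3 were called, all lower in CGE, and the median log2 fold of the list was -0.67 against 0.00 over all genes. Nkx2-1, the homeobox factor that defines the MGE, stood at 80.7 and 80.2 CPM in the CGE members, 598 and 435 in the MGE members and 70.9 and 86.3 in the LGE members. CGE and LGE libraries overlapped, and both MGE libraries lay far above them. The log2 fold against MGE was -2.70 ± 0.18 (SE, n = 2 libraries per group), with an adjusted p of 0.000245 in edgeR's test, and the call held under all 15 alternatives. Shh, the secreted morphogen of the ventral midline and MGE, stood at 30.2 and 37.2 CPM against 89.5 and 103 in MGE, a log2 fold of -1.52 ± 0.19 (edgeR adjusted p = 0.00828). Lhx6, a LIM-homeobox factor downstream of Nkx2-1, stood at 50.5 and 51.0 against 116 and 137, a log2 fold of -1.33 ± 0.17 (edgeR adjusted p = 0.00955), in a region shared with Morn5. With covered length taken into account, the fold of Lhx6 was -0.22 and was not called, and its peaks covered 12.54 and 16.0 kb in the CGE and 30.5 and 30.4 kb in the MGE libraries. Both Shh and Lhx6 lost the call without either MGE library. Summed over their regions, Ptch1 and Gli1, which respond to Hedgehog signals, had folds of -0.06 and 0.09.

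Of the 16 radial glia genes, Pax6 was called. It stood at 364 and 375 CPM in CGE members, 193 and 195 in MGE members and 357 and 324 in LGE members, a log2 fold of 0.92 ± 0.12 over MGE (edgeR adjusted p = 0.0117). Covered length left the fold at 0.87 but not the call (adjusted p = 0.132), and the call was also lost without either MGE library and with each library's own peaks. Sox1 and Ccnd1 had folds of -0.61 and -0.49 and did not pass. Olig1, a bHLH factor of the oligodendrocyte lineage that is also open in ventral progenitors, stood at 22.7 and 24.6 CPM against 52.0 and 39.9, a log2 fold of -0.97 ± 0.18 (edgeR adjusted p = 0.0477). This call was lost under 8 of 15 alternatives, among them without CGE replicate 1 and without either MGE library. Csf1r, the macrophage colony-stimulating factor receptor, stood at 13.9 and 15.6 CPM against 5.25 and 4.40, a log2 fold of 1.59 ± 0.26 (edgeR adjusted p = 0.0253), and at 0.49 with covered length. Its call was lost under 5 of 15 alternatives, with covered length, with each library's own peaks, with regions at start sites only and without either MGE library. The other 5 measured genes of the microglial and blood list were not called, with folds from -0.56 to 0.23.

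None of the 13 pallial genes was called, with a list median of 0.37. The lowest p-values were those of Neurog2, at 81.3 and 83.5 CPM against 52.1 and 47.8 (edgeR adjusted p = 0.0838), and Dmrta2, at 140.4 and 139.6 against 95.8 and 88.7 (edgeR adjusted p = 0.0916). The LGE list had no call and a median of 0.04, with Meis1 and Meis2 at 0.36 and 0.29. No Notch gene outside the rule was called: the 5 ligands had a median of -0.21, the 11 receptors and modulators -0.15 and the 4 targets -0.05, and the lowest adjusted p was 0.117 for Mfng, at 85.3 and 101 CPM against 160 and 131. Neither the 10 neurogenic nor the 10 neuronal genes held a call, with Sp9 nearest at -0.76 (edgeR adjusted p = 0.0545). The rule's own GABAergic genes, given as a description, had folds from -0.97 to -0.33, and B counts per 10000 counts were 1.505 and 1.61 in CGE, 2.29 and 2.83 in MGE and 1.12 and 1.31 in LGE members. The part of this residue in the other differences was not tested.

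**Figure D3:**
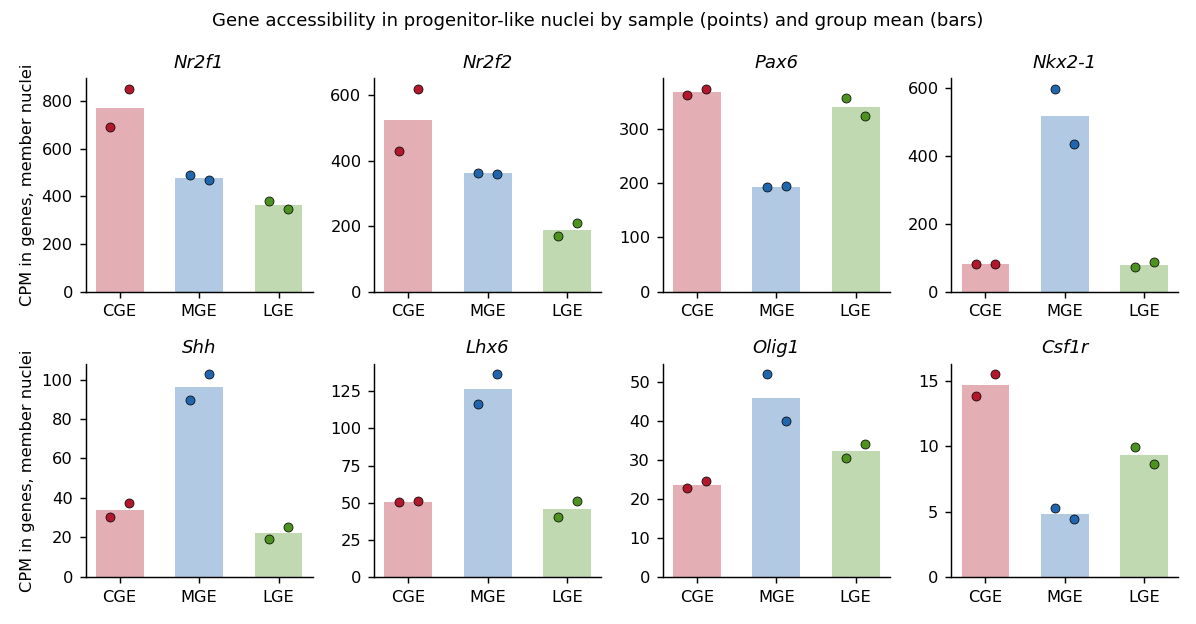
CPM in genes, summed over the member nuclei of each library (points; bars, mean of the 2 libraries of a group), for 8 named genes in CGE, MGE and LGE. Nkx2-1, Shh and Lhx6 are highest in both MGE libraries, Pax6 is lowest there, and Nr2f1 and Nr2f2 are highest in both CGE libraries. Nr2f1 and Nr2f2 were called in neither comparison.

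Outside the lists, the called genes with the largest folds were measured in 1 or 2 regions each. Cdh17, a cadherin, stood at 54.2 and 44.9 CPM in CGE, 5.48 and 5.5999 in MGE and 63.6 and 56.9 in LGE members, a log2 fold over MGE of 3.14 ± 0.18 (edgeR adjusted p = 7.02e-05) that held under all 14 alternatives. Kcng4, a potassium channel subunit, stood at 6.11 and 6.64 CPM against 0.857 and 0.360, a fold of 3.32 that was 1.57 and not called with covered length as an offset, and Hsd17b2, a steroid dehydrogenase, at 7.64 and 5.57 against 0.457 and 1.44, a fold of 2.82. Npc1l1, a sterol transporter of the gut, stood at 0.525 and 0.600 CPM, from 11 and 14 counts, against 10.6 and 10.8, a fold of -4.25 (edgeR adjusted p = 0.00408). The unnamed transcript 4930432M17Rik stood at 3.87 and 2.91 against 18.05 and 15.8, a fold of -2.34. Apart from Cdh17 these calls were lost without either MGE library. Those of Kcng4 and 4930432M17Rik were also lost with the offset and with each library's own peaks, and that of Hsd17b2 was kept under 8 of 15 alternatives and lost, among others, with the offset and without CGE replicate 1.

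Nr2f1 and Nr2f2, the genes most often used to mark the CGE, had log2 folds of 1.09 and 1.48 over LGE. However, no gene passed the test against LGE. The count was 0 of 16305 genes (0.0%) in edgeR, with 562 at an unadjusted p under 0.05 and 34 called by DESeq2. Nr2f1, measured in a region shared with Fam172a, stood at 690 and 852 CPM in CGE, 490 and 467 in MGE and 378 and 347 in LGE members. Its log2 fold was 1.09 ± 0.14 over LGE (edgeR adjusted p = 0.0618) and 0.67 ± 0.14 over MGE (edgeR adjusted p = 0.0629). Nr2f2 stood at 429 and 620 CPM in CGE, 362 and 360 in MGE and 169 and 209 in LGE members, a log2 fold of 1.48 ± 0.19 over LGE (edgeR adjusted p = 0.0618) and 0.53 ± 0.18 over MGE (edgeR adjusted p = 0.283). A gene with more sequence inside peaks has a larger sum: the Nr2f2 regions covered 42.8 and 49.6 kb in CGE and 19.0 and 33.2 kb in LGE libraries. With covered length as an offset the folds over LGE were 0.39 for Nr2f1 and 0.57 for Nr2f2, where the median of all genes was -0.19. Of the other CGE genes, Igfbp5, a binding protein of insulin-like growth factors, had a fold of 0.41 over LGE, Prox1 0.22, Npas1 0.12, Htr3a 0.11 and Sp8 -0.14. Nkx2-1 had 0.04, Gsx2 -0.17, Pax6 0.12, and Meis2, at 487 and 488 CPM against 585 and 623, -0.31; none of these passed the test. Shh stood at 30.2 and 37.2 CPM against 19.3 and 25.2 in LGE (edgeR adjusted p = 0.964).

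Single regions differed more often than genes did, and regions distal to Nr2f2 were among them. Of 51480 regions with a peak in all 6 libraries and similar covered lengths, 4355 were called against MGE (8.46%), 2306 higher and 2049 lower in CGE members, with 10680 at an unadjusted p under 0.05. Against LGE, 202 were called (0.392%), 121 higher and 81 lower, with 4973 at an unadjusted p under 0.05 and 975 called by DESeq2. With covered length as an offset the calls were 1181 higher and 1584 lower against MGE and 25 higher and 131 lower against LGE, where the offset moved the median of all regions to -0.17. Leaving out CGE replicate 2 left 6 calls against LGE, and leaving out either MGE library, which enters through the shared spread, left 3. Called regions lay away from promoters: 5.29% of those higher and 11.4% of those lower than in MGE were within 1 kb of a start site, as were 7.43% of those called against LGE, against 30.2% of all tested. The median distance to the nearest start site was 47.8 kb for regions higher than in MGE, 27.9 kb for those lower and 10.6 kb over all.

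Regions were assigned to the gene with the nearest start site. Among the 55 regions nearest to the 7 CGE genes, 12 were called higher and 1 lower against MGE (23.6%, beside 8.46% of all regions). Against LGE 5 were called higher and 1 lower (10.9%, beside 0.392% of all). These 5 higher calls were all lost without CGE replicate 2 and without either MGE library. Nr2f2 had 10 such regions, of which 6 were called higher against MGE and 3 against LGE. The region chr7:69572224-69574213 (GRCm38), 781.02 kb from the start site, stood at 33.2 and 45.02 CPM of the counts in tested regions in CGE members, 14.53 and 13.6 in MGE and 16.98 and 17.5 in LGE. Its log2 fold was 1.40 ± 0.22 over MGE (edgeR adjusted p = 0.00125) and 1.16 ± 0.22 over LGE (edgeR adjusted p = 0.0401). At chr7:70103390-70105424, 249.81 kb from the start, members stood at 26.2 and 40.7 CPM, against 8.80 and 15.5 in MGE and 11.9 and 10.4 in LGE, with folds of 1.40 ± 0.29 (edgeR adjusted p = 0.00672) and 1.57 ± 0.29 (edgeR adjusted p = 0.0362). The call against MGE was lost without CGE replicate 2 and without MGE replicate 1. In this region the other CGE nuclei were higher than the members, at 49.0 and 62.0 CPM. A region at chr7:70067016-70068773 was called against LGE alone, at 13.4 and 21.4 CPM in CGE, 16.7 and 23.6 in MGE and 4.77 and 3.41 in LGE, a log2 fold of 2.07 ± 0.30 over LGE (edgeR adjusted p = 0.0123). The region at chr7:70423388-70424904, 56.65 kb from the start, had the largest fold over MGE among the 10, 1.85 ± 0.24 (edgeR adjusted p = 0.000263), and 0.22 over LGE. All 3 calls against LGE were lost without CGE replicate 2, without either MGE library and with no minimum of covered length. That at chr7:69572224-69574213 was also lost without either LGE library, with members ranked after thinning and with regions near and far from start sites scaled separately. That at chr7:70103390-70105424 was also lost without LGE replicate 2 and with this separate scaling. With covered length as an offset 2 of them, at chr7:70067016-70068773 and chr7:70103390-70105424, kept their call.

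**Figure D4:**
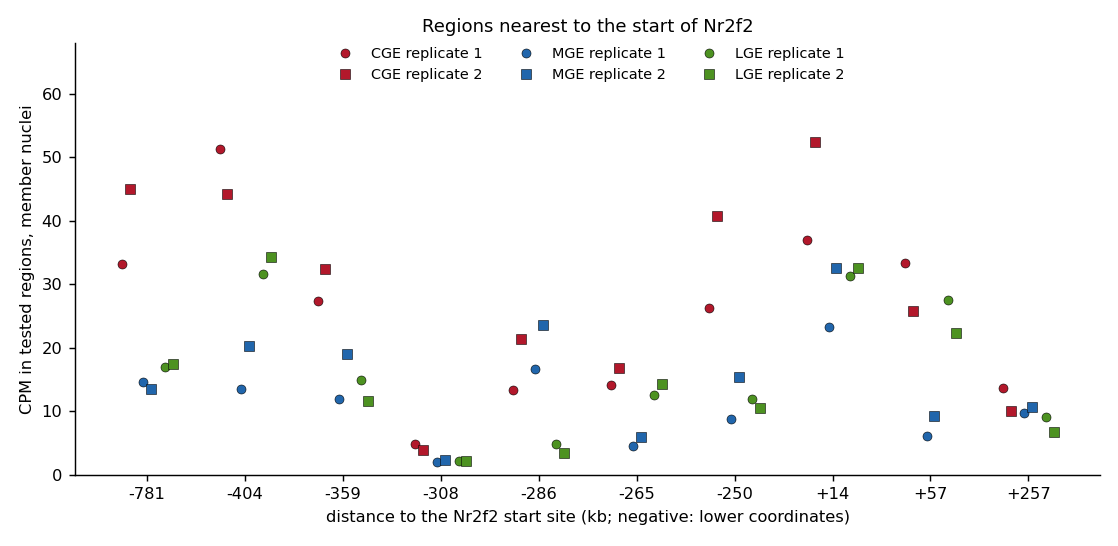
CPM of the counts in tested regions, summed over member nuclei (y axis), in the 10 tested regions whose nearest start site is that of Nr2f2, ordered by distance in kb (x axis; negative, lower coordinates). Points are libraries of CGE, MGE and LGE. Both CGE libraries lie above all MGE and LGE libraries in 6 of the 10 regions, among them those at -781.02 and -249.81 kb, and both LGE libraries lie lowest at -286.46 kb. Of all tested regions, in either direction, 46.3% had no overlap between CGE and MGE libraries and 36.6% none between CGE and LGE libraries. The regions at -307.64, 13.95 and 257.44 kb were called in neither comparison.

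Regions nearest to other patterning genes were called in both directions. Of the 127 regions nearest to the 10 LGE genes, 15 were higher and 4 lower than in MGE (14.96%, beside 8.46% of all regions). None was called against LGE, where 0.392% of all regions were. Meis1 had 2 higher and 1 lower, the latter with a log2 fold of -1.43 ± 0.30 (edgeR adjusted p = 0.00783), and Etv1 2 higher and 2 lower. The region that holds Nr2f1, chr13:78159945-78213950, was higher than in LGE by 1.08 ± 0.19 (edgeR adjusted p = 0.0306), where it covered 51.1 and 53.9 kb in CGE and 27.8 and 38.9 kb in LGE libraries. Its call was lost without CGE replicate 2 and without either MGE library. Prox1, a homeobox factor of CGE-derived interneurons, had 5 of 14 nearest regions higher than in MGE and 1 higher than in LGE. The latter, chr1:190374006-190376440, stood at 30.7 and 46.1 CPM in CGE, 15.3 and 16.9 in MGE and 17.4 and 16.5 in LGE. Its log2 fold over LGE was 1.16 ± 0.23, with an edgeR adjusted p of 0.0498, close to the threshold. The call was likewise lost without CGE replicate 2 and without either MGE library. Of the 8 regions nearest to Sp8, a zinc finger factor of LGE and CGE progenitors, chr12:118647209-118651395 was lower than in LGE, at 15.3 and 16.2 CPM against 39.1 and 43.8 (log2 fold -1.43 ± 0.21, edgeR adjusted p = 0.0123), and another was lower than in MGE. Lhx6 was nearest to no tested region. Of the 43 tested regions nearest to the other genes of the MGE list, 9 were lower than in MGE and none higher. Otx2, a homeobox factor of the rostral brain, accounted for 5 of them, and the regions that hold Shh, Olig2 and Lhx8 had folds of -1.62 ± 0.22, -0.93 ± 0.20 and -0.70 ± 0.19. The remaining call was a region 8146 bp from the start of Ptch1, at -0.93 ± 0.27 (edgeR adjusted p = 0.0471). The region that holds Nkx2-1 was left out, because its covered length differed too much between libraries, and the only tested region nearest to this gene had a fold of -0.46 and was not called. Neurog2 had 3 of 4 nearest regions higher than in MGE and Pax6 3 of 6. Of the 15 regions nearest to Notch targets none was called against MGE, of the 37 nearest to Notch receptors and modulators 4 were lower, and of the 19 nearest to Notch ligands 1 was higher. Of the 155 regions nearest to radial glia genes 17 were higher and 12 lower than in MGE (18.7%, against 8.46% of all regions).

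The ranking of regions by fold did not take in every chromosome. Among the regions ranked, those with the largest folds lay between genes or in introns. Against MGE, chr9:91456115-91457446, intergenic and 73.7 kb from the start of Zic4, was low in CGE and LGE members alike. It stood at 0.770 and 1.67 CPM in CGE, 1.97 and 1.58 in LGE and 19.2 and 33.4 in MGE members (log2 fold over MGE -4.48 ± 0.40, edgeR adjusted p = 2.59e-05). The other CGE nuclei stood at 11.3 and 7.97. An intergenic region 92.3 kb from Galc, chr12:98123245-98124268, stood at 1.06 and 0.705 in CGE, 1.88 and 1.04 in LGE and 9.82 and 15.4 in MGE members (log2 fold over MGE -3.93 ± 0.39, edgeR adjusted p = 5.33e-05). In the other direction, chr2:91324291-91325688, in an intron of 1110051M20Rik, stood at 31.7 and 38.8 CPM against 3.13 and 3.37 in MGE and 14.4 and 9.60 in LGE (log2 fold over MGE 3.36 ± 0.27, edgeR adjusted p = 1.63e-05). The intergenic regions chr5:119161961-119162944 near Med13l and chr11:71497463-71498892 near Wscd1 had folds of 3.31 and 3.18 over MGE, and chr1:67235048-67236671 near Cps1 -3.92. The calls of these 6 regions held under all 15 alternatives.

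Against LGE, chr5:139567767-139568989, intergenic and 23.9 kb from Uncx, stood at 33.7 and 43.3 CPM against 6.05 and 4.25 in LGE and 16.7 and 14.8 in MGE (log2 fold over LGE 2.88 ± 0.25, edgeR adjusted p = 0.000643). An intronic region of Focad, chr4:88372074-88373635, stood at 45.5 and 52.7 CPM against 11.9 and 8.21 in LGE and 14.3 and 15.5 in MGE (log2 fold over LGE 2.27 ± 0.22, edgeR adjusted p = 0.00153). Both calls held under all 15 alternatives. The lowest of the ranked regions was chr10:92091374-92092692, intergenic and 624 kb from Nedd1. It stood at 4.72 and 5.46 CPM in CGE, 6.71 and 7.73 in MGE and 22.4 and 46.0 in LGE members (log2 fold over LGE -2.78 ± 0.33, edgeR adjusted p = 0.00609). It was followed by chr9:100096750-100097567, 221 kb from Sox14, at -2.44 and chr11:111843347-111845090, 777 kb from Kcnj2, at -2.40. The calls of these 3 were lost without either MGE library, and that near Sox14 also without CGE replicate 2 and with no minimum of covered length. The region chr12:95392483-95393453, 299 kb from Flrt2, had a fold of 2.21 and kept its call under 6 of 15 alternatives.

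The central 300 bases common to all libraries' peaks are shown for 3 regions higher in CGE members, with TAATTA, the core bound by many homeobox factors, in capitals, because the share of windows with these letters differed most between regions called higher than in MGE and all regions. The regions were chosen after their values were seen. That near Nr2f2 (at 249.81 kb) was called against MGE and LGE with and without the offset. Those near Uncx and in 1110051M20Rik had the largest folds among the regions ranked in each comparison. All are on the plus strand of GRCm38. The last holds no TAATTA.
chr7:70104242-70104541: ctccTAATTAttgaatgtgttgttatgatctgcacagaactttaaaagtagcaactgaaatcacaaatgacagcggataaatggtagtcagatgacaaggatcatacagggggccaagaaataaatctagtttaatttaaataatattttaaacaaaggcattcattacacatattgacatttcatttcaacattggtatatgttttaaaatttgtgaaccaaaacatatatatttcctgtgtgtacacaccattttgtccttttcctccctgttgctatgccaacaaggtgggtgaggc
chr5:139568117-139568416: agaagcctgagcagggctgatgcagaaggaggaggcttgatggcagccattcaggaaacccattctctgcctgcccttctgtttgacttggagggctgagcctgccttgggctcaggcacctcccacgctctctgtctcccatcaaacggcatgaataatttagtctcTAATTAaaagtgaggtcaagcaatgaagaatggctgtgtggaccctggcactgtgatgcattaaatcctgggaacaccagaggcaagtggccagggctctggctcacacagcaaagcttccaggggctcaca
chr2:91324887-91325186: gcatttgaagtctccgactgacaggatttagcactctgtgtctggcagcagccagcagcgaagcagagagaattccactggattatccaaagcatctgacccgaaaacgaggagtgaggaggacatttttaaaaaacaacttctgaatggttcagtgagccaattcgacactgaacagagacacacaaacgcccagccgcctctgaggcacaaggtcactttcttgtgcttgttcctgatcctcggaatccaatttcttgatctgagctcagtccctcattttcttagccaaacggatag
The next windows are those of the ranked regions with the lowest folds, near Zic4 and Galc against MGE and near Nedd1 against LGE. Capitals mark CACTTG, the core of NKX2 sites, which among these windows is present only in that near Galc. The window near Uncx above also holds these letters, on the minus strand and without capitals.
chr9:91456593-91456892: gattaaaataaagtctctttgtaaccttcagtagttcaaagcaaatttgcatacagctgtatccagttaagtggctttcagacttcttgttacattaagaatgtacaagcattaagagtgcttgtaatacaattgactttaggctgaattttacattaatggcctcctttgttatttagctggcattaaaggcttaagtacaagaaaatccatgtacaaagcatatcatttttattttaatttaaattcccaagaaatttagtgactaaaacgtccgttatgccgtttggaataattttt
chr12:98123520-98123819: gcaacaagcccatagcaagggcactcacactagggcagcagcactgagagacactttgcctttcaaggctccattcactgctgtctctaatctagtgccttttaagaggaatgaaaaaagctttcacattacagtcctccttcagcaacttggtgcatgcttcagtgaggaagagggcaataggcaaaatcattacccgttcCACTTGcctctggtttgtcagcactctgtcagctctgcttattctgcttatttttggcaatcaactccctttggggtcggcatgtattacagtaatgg
chr10:92091844-92092143: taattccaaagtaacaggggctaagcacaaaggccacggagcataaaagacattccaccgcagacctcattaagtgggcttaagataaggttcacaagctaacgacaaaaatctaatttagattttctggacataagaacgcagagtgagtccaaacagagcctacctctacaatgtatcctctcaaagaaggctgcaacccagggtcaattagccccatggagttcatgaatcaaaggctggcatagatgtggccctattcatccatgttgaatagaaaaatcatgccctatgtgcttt

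Such windows were read for 50445 of the 51480 regions and searched on both strands for 10 sets of letters. TAATTA was present in 26.5% of the 2179 windows that were higher in CGE than in MGE members and far from start sites (over 1 kb). It was present in 11.6% of the 1807 lower ones and in 12.2% of all 34982 distal windows. Among distal windows with a GC content of 45% to 50% the shares were 23.7%, 10.3% and 11.9%, whereas without this band the median GC of the 3 sets was 47.3%, 48.3% and 49.0%. Against LGE it was present in 22.8% of 114 higher and 9.6% of 73 lower windows, and within the GC band in 16.0% of 50 higher and 10.5% of 19 lower windows. CACTTG was found in 16.5% of windows higher than in MGE, 24.3% of the lower ones and 17.6% of all, and the E-box CAGCTG in 20.97%, 31.5% and 24.4%. Within the GC band these shares were 16.97%, 25.1% and 18.6% for the former and 22.2%, 29.7% and 23.1% for the latter letters. AGGTCA, the core bound by NR2F and other nuclear receptors, was in 13.5% of windows higher than in MGE, 11.6% of the lower ones and 14.3% of all, and in 19.3% of those higher and 17.8% of those lower than in LGE. Within the GC band it was in 16.2%, 11.6% and 14.2% in the comparison with MGE, and in 24.0% of higher and 10.5% of lower windows in that with LGE. The remaining letters were ACAATG for SOX, CAGATG for a further E-box, GGAATG for TEAD, TTGGCA for NFI, TGACAG for MEIS and TGATTG for LHX factors. Among these the widest difference from all windows in the comparison with MGE was that of ACAATG, in 21.2% of the lower and 17.3% of all windows, and within the GC band in 22.8% of the lower, 22.5% of the higher and 19.2% of all. Against LGE the numbers of windows were small, with GGAATG in 10.5% of higher and 28.8% of lower windows, CAGATG in 35.1% and 15.1%, and CAGCTG in 34.2% and 16.4%, the reverse of its order against MGE. Within the GC band, with 50 higher and 19 lower windows, the shares were 4.0% and 26.3% for GGAATG, 38% and 31.6% for CAGATG, and 40.0% and 15.8% for CAGCTG. A match is a run of letters, not a bound site.

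**Figure D5:**
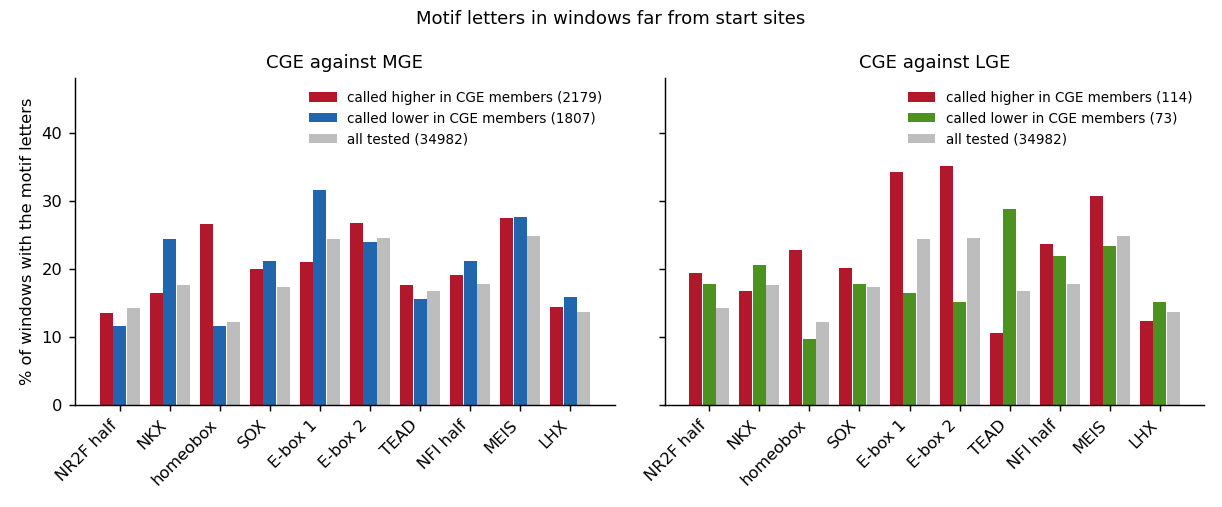
Share of 300-base windows far from start sites (y axis, %) that hold the letters of each motif (x axis), for regions called higher or lower in CGE members and for all tested, against MGE (left) and LGE (right); numbers of windows in parentheses. The homeobox letters are in 26.5% of windows higher than in MGE and 12.2% of all; E-box 1 is CAGCTG, E-box 2 CAGATG, and the NR2F and NFI columns are AGGTCA and TTGGCA.

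Of the deposited counts per transcription factor motif none passed the test, with folds from -0.88 to 1.00 against MGE and -1.29 to 1.47 against LGE. Of 579 motifs none was called against MGE (0.0%) or LGE (0.0%) in edgeR, with 23 and 70 at an unadjusted p under 0.05 and 7 and 16 called by DESeq2. The lowest adjusted p was 0.904 against MGE and 0.393 against LGE. The 4 NR2F motifs had median folds of -0.15 and 0.10, the 8 NKX motifs -0.02 and 0.03 and the 5 DLX motifs 0.09 and 0.02. NKX2-8 had the lowest p among NKX motifs against MGE, at 1437 and 1487 CPM of motif counts in CGE and 1854 and 1669 in MGE members (edgeR adjusted p = 0.904). Between members and the other CGE nuclei the largest ratios were those of Pax6, 0.27 and 0.43, and MYBL1, 0.22 and 0.27, and the lowest that of ATF4, -0.20 and -0.25. The TEAD motifs had medians of 0.08 and 0.13 and the SOX motifs 0.02 and 0.06.

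Whether the members differed between eminences in another way than the other nuclei did was tested as an interaction, with the library as a block. In each eminence the rule itself had split members from the other nuclei by their GABAergic counts. The part of this choice in the interactions, such as those of genes of neurons, was not tested. The difference between CGE and MGE was not the same in members and other nuclei for 303 of 16306 genes (1.86%), 191 with a higher and 112 with a lower fold in members, and 2107 had an unadjusted p under 0.05. For CGE and LGE, 2 of 16306 genes were called (0.0123%), with 1181 under 0.05 and 10 called by DESeq2. Lhx6 and Lhx8, LIM-homeobox factors of MGE-derived neurons, were 2 of the 10 MGE genes called. Lhx8 stood at 63.0 and 66.6 CPM in CGE and 87.3 and 106 in MGE members, but at 52.1 and 55.3 in the other CGE and 132 and 151 in the other MGE nuclei. Its fold was thus closer to 0 in members, by 0.82 ± 0.08 (edgeR adjusted p = 1.68e-05). For Lhx6 the difference of folds was 0.72 ± 0.10 (edgeR adjusted p = 0.000391), from 78.4 and 79.4 CPM in the other CGE nuclei and 332 and 314 in the other MGE nuclei. Nkx2-1 and Shh were not called in this test, at -0.33 and -0.35. Emx1 and Emx2, pallial homeobox genes, had 0.47 and 0.38 (edgeR adjusted p = 0.012 and 0.0363). The call of Emx1 was lost without CGE replicate 1, without MGE replicate 1 and with members ranked after thinning, and that of Emx2 without CGE replicate 2, without MGE replicate 1 and without LGE replicate 1. Also called were the mural and mesenchymal genes Pdgfrb at 0.42 and Col1a2 at -0.98, and the glial gene Sox10 at -0.43 in a region shared with Polr2f. The call of Col1a2 held under all 13 alternatives, while those of Pdgfrb and Sox10 were kept under 8. That of Pdgfrb was lost by DESeq2, with members ranked after thinning and without CGE replicate 2, MGE replicate 2 or LGE replicate 1. That of Sox10 was lost by DESeq2, with each library's own peaks and without CGE replicate 1, MGE replicate 2 or LGE replicate 1. No gene of the radial glia, Notch, neurogenic, neuronal, CGE or LGE lists was called in either interaction.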

How the data were processed

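Nuclei of wild-type CGE, MGE and LGE, 2 libraries each, were profiled by single-nucleus ATAC-seq. Per the submitters' processing notes the authors used Cell Ranger ATAC 1.2.0 with GRCm38 (mm10), and they deposited raw counts per peak and nucleus, with peaks called in each library, and counts per motif. The members and gene lists were chosen with earlier results of these data known.

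Peaks of the 6 libraries were merged into 223135 regions, of which 77217 had a peak in every library, and 51480 of these, with a least covered length of at least 0.5 of the most covered, were tested. A gene was the sum over merged regions overlapping its body or 2 kb upstream (GENCODE M21, 21911 protein-coding genes). Counts of member nuclei were summed per library, and edgeR 4.0.16 (R 4.3.3; TMM, filterByExpr, quasi-likelihood test, Benjamini-Hochberg adjustment) compared the 3 groups of 2. The interaction used 12 sums with the library as block. DESeq2 1.42.0 was an alternative. Steps were tested on simulated data.

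Named genes were 2 to 4 per list with the largest called fold or smallest p. The 3 largest called folds in each direction without overlap were named too, and likewise 3 regions per direction. The ranking of regions by fold did not take in every chromosome. Members were clustered with leidenalg 0.10.2 (30 components, 20 neighbours, resolution 0.5). Doublets were not called, and an alternative left out the 5% of nuclei with the most counts. Member counts ranged from 23342762 to 38414782 per library.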

Additional observations from a re-analysis of the deposited data

Results flagged for a closer look

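The difference between eminences was not the same in members and in the other nuclei for the following genes, which had the smallest adjusted p in edgeR's interaction test. The sign is that of the fold in members minus the fold in the other nuclei, and causes were not tested. Mettl11b, a methyltransferase gene, had a difference of 1.92 ± 0.16 between CGE and MGE (edgeR adjusted p = 4.19e-06), from 12.8 and 8.87 CPM in CGE against 8.34 and 16.1 in MGE members and 8.89 and 5.77 against 21.7 and 40.7 in the other nuclei. Brinp1 had -0.99 ± 0.09 (edgeR adjusted p = 1.33e-05), from 79.8 and 55.7 against 93.6 and 128 in members and 106 and 83.5 against 68.6 and 88.7 in the other nuclei. The difference for Lhx8, described above, was 0.82.

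Necab2, a calcium-binding protein gene, had 0.79 ± 0.08 (edgeR adjusted p = 2e-05), from 90.9 and 84.6 against 66.5 and 46.4 in members and 66.5 and 58.8 against 81.6 and 58.3 in the other nuclei. Lgals12, a galectin gene, had 0.99 ± 0.11 (edgeR adjusted p = 5.1e-05), from 110.8 and 97.9 against 33.7 and 29.2 in members and 70.1 and 62.3 against 36.5 and 44.3 in the other nuclei. These 5 calls held under all 13 alternatives.

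Between CGE and LGE, Zfp503, a zinc finger gene of the developing striatum, had 0.52 ± 0.08 (edgeR adjusted p = 0.0343), from 117 and 136 against 89.3 and 105 in members and 114 and 156 against 138 and 156 in the other nuclei. Igdcc3 had 0.51 ± 0.08 (edgeR adjusted p = 0.0343), from 332 and 415 against 235 and 251 in members and 240.2 and 275 against 233 and 244 in the other nuclei. Both calls were lost in 5 of 13 alternatives, among them without CGE replicate 1 and without either LGE library.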

How the results depend on the processing

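Region calls against MGE numbered 7316 with no minimum of covered length and 2765 with covered length as an offset, and 2450 (without MGE replicate 1) to 4872 when a library was left out. Region calls against LGE were 975 by DESeq2, 37 with no minimum of covered length, and 3 (without MGE replicate 1 or 2) to 644 (without LGE replicate 1) with a library left out, with 6 without CGE replicate 2 and 54 without LGE replicate 2. Gene calls against MGE were 519 by DESeq2, 41 with each library's own peaks, 28 with regions at start sites only, 11 with the offset, and 6 (without MGE replicate 1) to 283 (without LGE replicate 1) with a library left out. Gene calls against LGE were 34 by DESeq2, 3 with own peaks, 3 without the 5% of nuclei with the most counts, and 0 to 9 with a library left out. Motif calls by DESeq2 were 7 against MGE and 16 against LGE. Interaction calls for MGE were 533 with own peaks and 108 (without CGE replicate 1) to 386 with a library left out, with 179 without LGE replicate 1. Interaction calls for LGE were 10 by DESeq2, 25 with own peaks, 0 against the lowest 30% of nuclei, 0 with members ranked after thinning, 9 without the deepest nuclei, 10 with the members at or above the median rate of progenitor counts, and 0 to 38 (without MGE replicate 2) with a library left out. That set of members, chosen after seeing the data, gave 4109 and 172 region calls and 112 and 0 gene calls. The radial glia median over both replicates was 0.58, and 1.00 against the lowest 30% of nuclei, and clusters numbered 2 at resolution 0.3 and 10 at 1.0. The causes were not tested.

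With the replicate block (the replicate number as a term), calls were 5226 and 295 for regions, 77 and 0 for genes and 0 and 0 for motifs, and Olig1, Hsd17b2 and the region near Flrt2 lost their call. Same-numbered libraries also share the range of odd counts. Same-numbered libraries correlated at -0.06, 0.57 and 0.03 over genes in the 3 pairs of eminences (CGE and MGE, CGE and LGE, MGE and LGE). Over regions the values were -0.003, 0.41 and 0.02. Over motifs they were 0.38, 0.28 and 0.41, and there the block gave no call either. With 2 numbers per eminence and these correlations over genes, the numbers were not taken to pair samples. Among called single results, 39 of 162 recomputed gene values, 43 of 315 region values and 26 of 169 interaction values lost the call, and 0 reversed. Where MGE libraries are left out, the remaining library is assumed to vary like the other groups. Npc1l1 rests on 11 and 14 counts in the CGE members.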
